A study of Mus musculus with 4 samples.

Results

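YAP (Yap1) and TAZ (Wwtr1), their DNA-binding partner TEAD1 and 6 genes known as their targets were examined in NIH-3T3 cells treated with activators of chaperone-mediated autophagy (CMA), which delivers selected proteins across the lysosomal membrane for breakdown. NIH-3T3 is an established mouse fibroblast line. The genes were Yap1, Wwtr1, Tead1, Ccn1 (formerly Cyr61), Ccn2 (formerly Ctgf), Ankrd1, Amotl2, Axl and Lats2. Every gene probe whose transcript accession belongs to one of them was taken, which gave 12 probes for the 9 genes, out of 55378 probes and 36838 gene names.

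Untreated cells were on 1 array, and cells given 20 µM of AR7, CA39 or CA77 for 24 h were on 1 array each. The labels describe all cells as WT, and the cultures had reached confluency before the compounds were added. The compounds were in DMSO while the control is labelled as having no treatment, so vehicle and compound cannot be told apart in a change that all 3 treated arrays share. No group has a replicate, so each difference compares 2 arrays, has no test and no p-value, and its error between cultures is unknown.

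YAP and TAZ are related coactivators that do not bind DNA themselves. When the Hippo kinases are inactive, both enter the nucleus and act through TEAD proteins. When the kinases are active, LATS phosphorylates both and holds them in the cytoplasm. In fibroblasts this switch is known to respond to cell crowding and to tension of the actin cytoskeleton, and confluent cultures keep much YAP outside the nucleus. Several targets are inhibitors of the pathway and form a feedback loop. The arrays measure messenger RNA and not where the proteins were.

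The sequence bound by TEAD proteins was looked for in the promoters, since the genes share TEAD as their common link and yet differed in response. GGAATG was searched on both strands (CATTCC on the other) in the 250 bases before each start in RefSeq, mouse build GRCm38.p6. Of the 9 genes 7 had such a window, all but Ccn2 and Tead1, and 6 of these 7 held the motif, against 14.4% of 27025 symbols with a window. Yap1, Wwtr1, Ccn1, Axl and Amotl2 held 1 match each, Ankrd1 held 2, and neither window of Lats2 held any. The CArG box, the site of serum response factor, was in 0 of the 7 genes and in 1.62% of all symbols. With so small a share, 0 of 7 does not set these genes apart. A match is a description of the letters and not of binding. The 4 stretches of the targets Ccn1, Amotl2 and Ankrd1 are shown because these genes gave 3 different patterns below. Capitals mark the motif, and each stretch reads in the direction of the gene. They lie at chr3:145650053-145650118 (minus strand) for Ccn1, chr9:102717709-102717774 (plus strand) for Amotl2, and chr19:36120019-36120084 and chr19:36119932-36119997 (minus strand) for Ankrd1. The motif starts 103 bases before the start of Ccn1, 65 before that of Amotl2, and 210 and 123 before that of Ankrd1.
Ccn1: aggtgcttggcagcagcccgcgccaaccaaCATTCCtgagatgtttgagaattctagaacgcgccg
Amotl2: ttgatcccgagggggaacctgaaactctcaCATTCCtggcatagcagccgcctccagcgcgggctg
Ankrd1, distal: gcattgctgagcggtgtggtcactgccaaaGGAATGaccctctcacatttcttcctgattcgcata
Ankrd1, proximal: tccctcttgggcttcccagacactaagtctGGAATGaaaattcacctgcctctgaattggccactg

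Values below are quantile-normalized log2 intensities of the brightest probe of a gene, and differences are treated minus untreated on that scale unless stated. All 9 genes were well above background on all 4 arrays by this probe. The only error that can be measured is that between repeated spots of 1 array, which gives a tolerance of 0.16 for the difference of 2 arrays. A gene was counted as past 1.5-fold when its difference was at least 0.585 in size. On the slide, row 1 held the untreated array and row 2 all treated ones, so the effect of that position cannot be told apart from that of treatment. CA77 was read in scan 2 and the others in scan 1. Between 52.2% and 69.7% of probes were well above background, the highest share being on the untreated array.

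Across the 9 genes, 6 of 27 differences from untreated were past 1.5-fold. The 6 belonged to 3 target genes, Ccn1, Ccn2 and Amotl2. Past 1.5-fold were Ccn2 and Amotl2 with AR7, both lower, where 4.75% of all gene names were past it, 3.27% higher and 1.48% lower. With CA39 they were Ccn2, higher, and Ccn1, lower, against 10.9% of all gene names, 6.94% higher and 3.99% lower. With CA77 they were Ccn2 and Amotl2, both lower, against 6.58%, of which 3.81% were higher and 2.77% lower. Among names detected on all arrays with a mean of at least 12, as these genes have, the shares past 1.5-fold were smaller, at 1.15% for AR7, 5.42% for CA39 and 1.31% for CA77. At 2-fold, Ccn2 was left for AR7 (2.22% of all gene names), Ccn1 and Ccn2 for CA39 (4.9%) and none for CA77 (2.51%). The median difference of the 9 genes was -0.23 (AR7), 0.01 (CA39) and -0.09 (CA77). The same medians over the 20594 gene names detected on all arrays were -0.01, -0.04 and -0.02. The counts rest on 3 genes, which with CA39 lay on both sides of untreated.

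**Figure D1:**
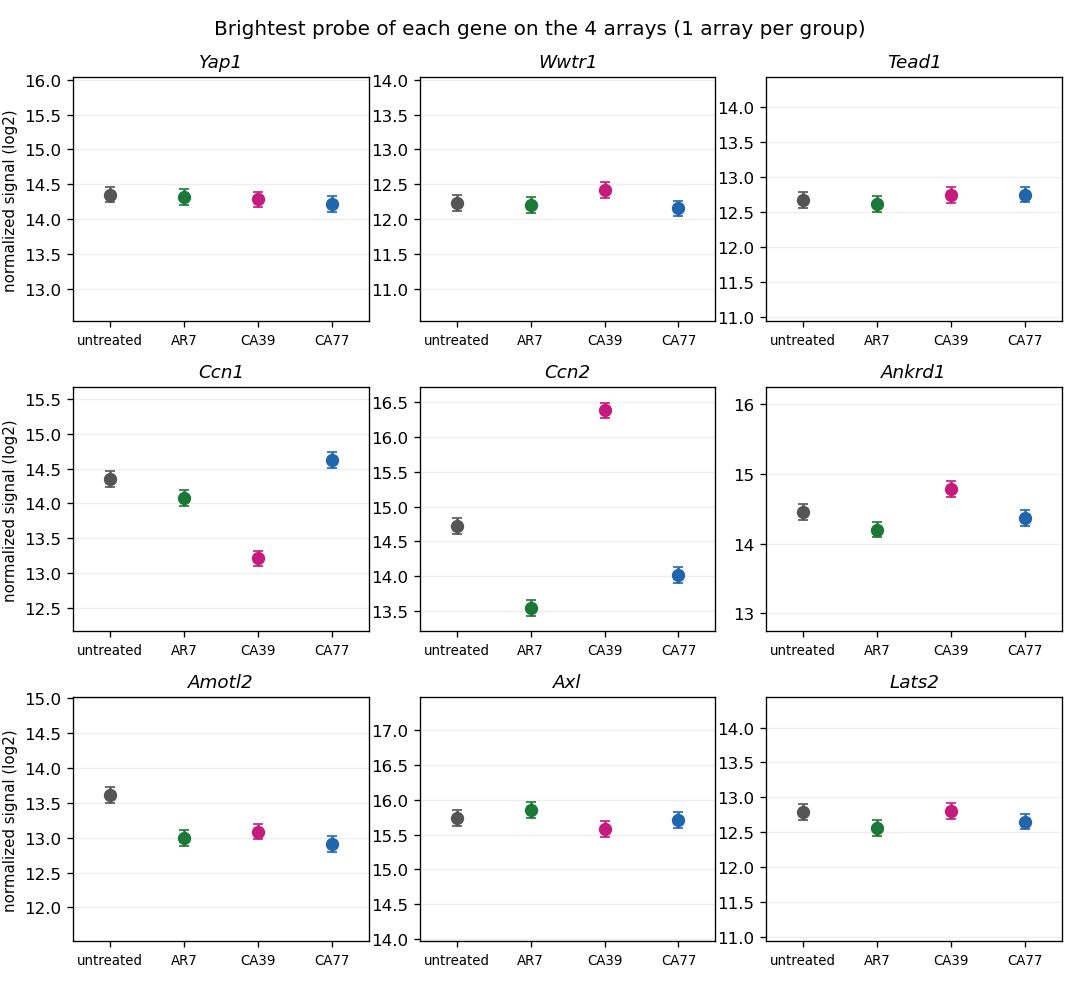
Normalized log2 signal of the brightest probe of each gene on the untreated, AR7, CA39 and CA77 arrays, 1 array per group. Panels span the same log2 height and bars are the median SD between repeated spots of an array. Ccn2 spanned 2.84 over the arrays and Ccn1 1.41, while Yap1 and Tead1 each spanned 0.14.

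The coactivators and their partner came first. Yap1 read 14.35 on the untreated array, 14.32 with AR7, 14.28 with CA39 and 14.21 with CA77. All treated arrays lay below the untreated one, and none by more than the tolerance. Wwtr1 read 12.23, 12.20, 12.41 and 12.15 in the same order. Its difference with CA39 of 0.18 was just outside the tolerance, and the other 2 were inside it. The Wwtr1 spot lies near the edge of the array, in grid row 381 of 384, and the 14 measured spots within 2 rows and columns had a median difference of -0.63 (AR7), -0.24 (CA39) and -0.21 (CA77). With the wider local median subtracted, Wwtr1 was at 0.06, 0.30 and 0.05. Tead1 read 12.68 untreated, 12.61 with AR7, 12.75 with CA39 and 12.75 with CA77, all within the tolerance of untreated.

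The other probes of Tead1 were compared with the brightest. One read 7.59, 7.54, 7.44 and 7.39, which placed only CA77 outside the tolerance, at -0.20. The last read 8.61 untreated, 8.76 with CA39 and 8.63 with CA77, but was not well above background with AR7, where its reading was 3.38. Against the floor of the AR7 array the bound was -1.81. This spot lies in grid column 1, and of the 8 spots within 2 rows and columns that were detected on the untreated array, 4 were detected on AR7, with a median difference of -1.63. The same 8 spots had a median of 0.02 with CA39 and 0.04 with CA77. The brightest probe of Tead1, from the same accession, differed by -0.06 with AR7.

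Ccn2, a secreted matricellular protein that promotes matrix production, differed most among the 9 genes. Its normalized signal was 14.73 untreated, 13.54 (AR7), 16.38 (CA39) and 14.02 (CA77). The spot intensities above local background, before any scaling, were 27361, 12584, 85790 and 15094.5 scanner units. The order was therefore the same before and after normalization, with CA39 high and AR7 low. Ccn2 was 3.15-fold higher with CA39, 2.27-fold lower with AR7 and 1.64-fold lower with CA77. With AR7, 82 of 27854 gene names (0.294%) lay as low or lower. With CA39, 469 of 27893 (1.68%) lay as high or higher, and with CA77 444 of 28126 (1.58%) lay as low or lower. The measured spots within 2 rows and columns of the Ccn2 spot had medians between -0.03 and 0.00, so its surroundings did not share its differences.

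Ccn1, the close relative of Ccn2 and likewise secreted, showed another order. It read 14.35 untreated, 14.07 (AR7), 13.21 (CA39) and 14.62 (CA77). The unscaled spot intensities were 20967.5, 18263, 9751 and 23131. Thus CA39 was low and CA77 was the highest array. The difference was -1.14 with CA39, or 2.20-fold lower, and 237 gene names (0.850%) were as low or lower there. It was -0.28 with AR7 and 0.27 with CA77, both outside the tolerance and under 1.5-fold. The 18 measured spots within 2 rows and columns of it had medians of -0.13 (AR7), -0.22 (CA39) and -0.20 (CA77). With CA39 the pair of CCN genes thus lay on opposite sides of untreated, at 1.65 for Ccn2 and -1.14 for Ccn1.

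**Figure D2:**
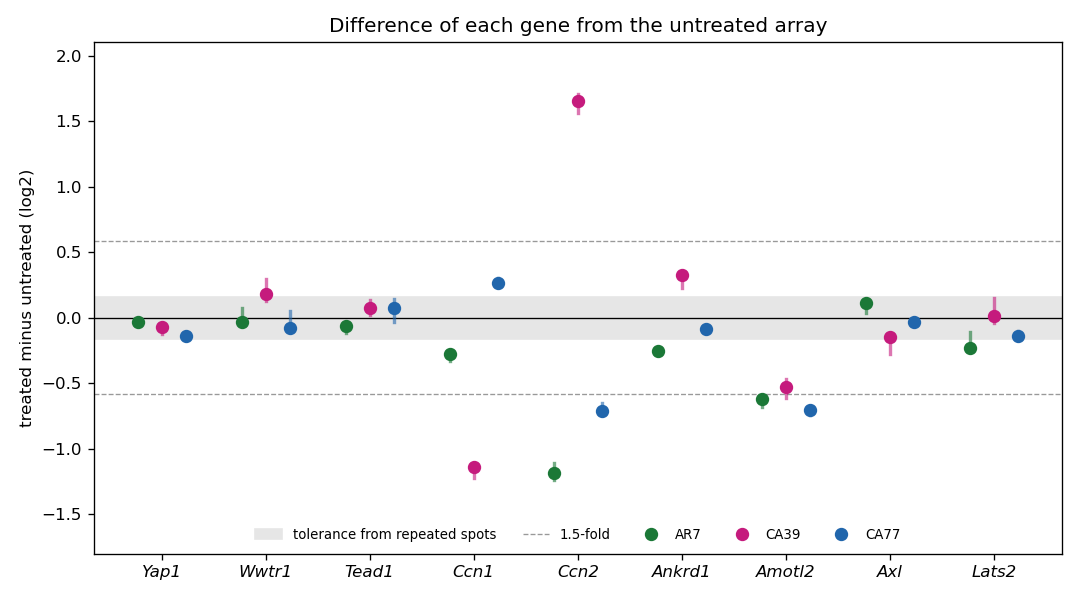
Treated minus untreated log2 difference of each gene for AR7, CA39 and CA77. Points are the values as processed here, vertical lines run from the lowest to the highest value over 10 other processings, the grey band is the tolerance of 0.16 and dashed lines mark 1.5-fold. Only Ccn1, Ccn2 and Amotl2 have points past 1.5-fold, and the CA39 points of Ccn1 and Ccn2 lie on opposite sides of 0.

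Ankrd1 encodes an ankyrin repeat protein of stretched muscle and is a common readout of YAP in other cells. It read 14.45 untreated, 14.20 with AR7, 14.78 with CA39 and 14.37 with CA77. Its arrays stood in the order of Ccn2, with CA39 highest and AR7 lowest, over a range of 0.58 in place of 2.84. The differences were -0.25 with AR7 and 0.33 with CA39, outside the tolerance and under 1.5-fold, and -0.09 with CA77, within it.

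The feedback inhibitors were Amotl2 and Lats2. AMOTL2, a scaffold of the angiomotin family at cell junctions, binds YAP and restrains it. Amotl2 read 13.62 untreated, 13.00 with AR7, 13.09 with CA39 and 12.91 with CA77. All 3 treated arrays were below the untreated array and within 0.18 of each other. In fold terms Amotl2 was 1.54-fold lower with AR7, 1.44-fold with CA39 and 1.63-fold with CA77. The CA39 value was under 1.5-fold here and past it under both scalings to the 75th percentile, with a range from -0.61 to -0.47 over all alternatives. Amotl2 thus differed the same way beyond the tolerance on all treated arrays. In this pattern DMSO and slide row cannot be told apart from the compounds, and the share of all gene names with it was not computed.

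LATS2, the kinase that phosphorylates YAP and TAZ, is both a regulator and a target. Lats2 read 12.79 untreated, 12.56 (AR7), 12.81 (CA39) and 12.65 (CA77). The arrays stood in the order of Ccn2, over a range of 0.24, and only AR7 was outside the tolerance, at -0.23, and it was at -0.15 with the local median subtracted. Another probe, from a different transcript accession, read between 8.31 and 8.41 on the 4 arrays, with differences of 0.01, -0.04 and -0.10.

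AXL is a receptor tyrosine kinase for the ligand GAS6 and is widely used as a YAP target. Axl read 15.74 untreated, 15.85 with AR7, 15.59 with CA39 and 15.71 with CA77. All 3 differences were within the tolerance, the largest being -0.15 with CA39, which became -0.26 with the local median subtracted.

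**Figure D3:**
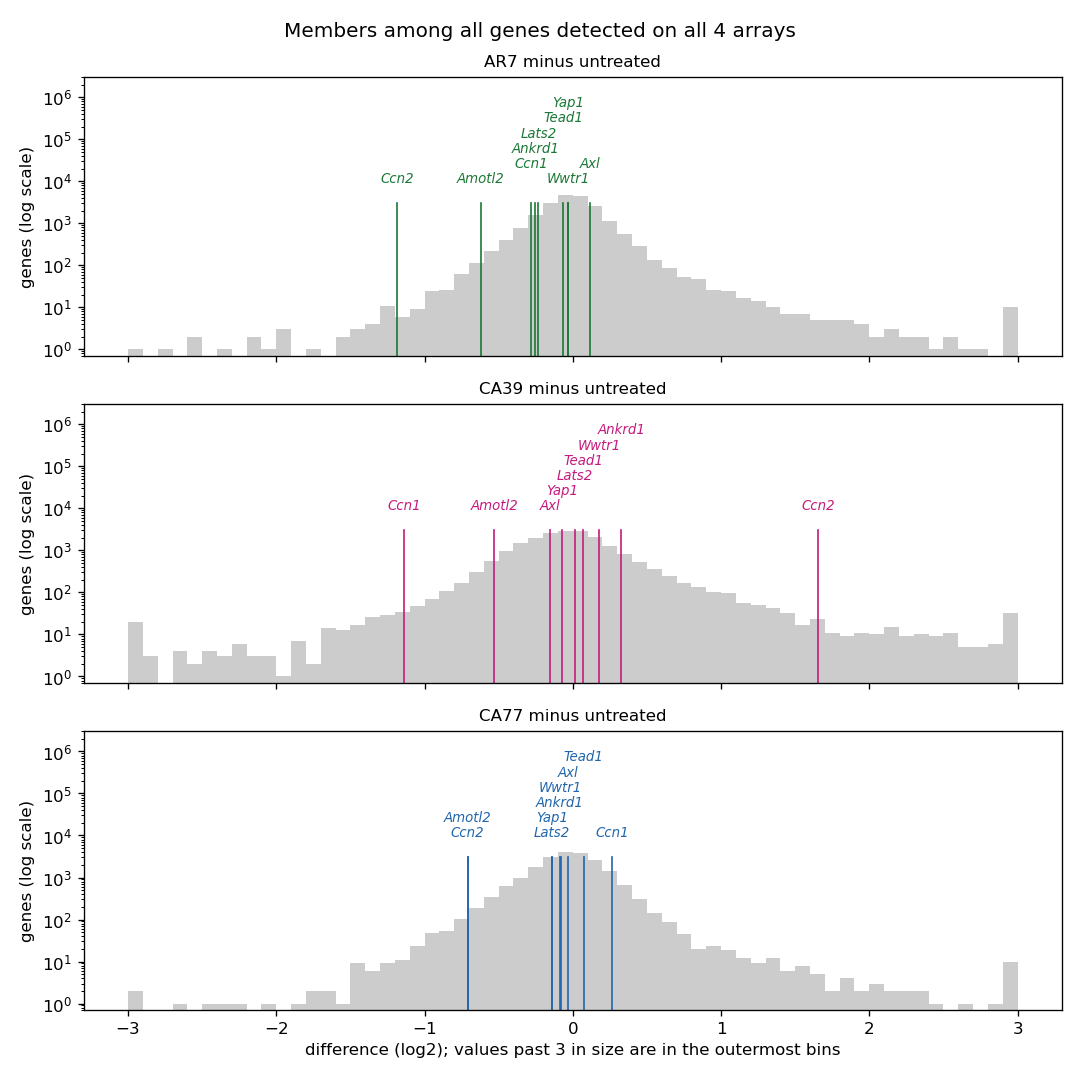
Number of gene names detected on all 4 arrays by log2 difference from untreated, in bins of 0.1 on a logarithmic count axis, with coloured lines at the 9 genes. Ccn2 is at -1.18 (AR7), 1.65 (CA39) and -0.71 (CA77), and Yap1, Tead1 and Axl lie in the centre of each distribution.

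The compounds were next set against each other, at the same dose and time and without the untreated array. Between CA77 and AR7, 0 of the 9 genes were past 1.5-fold, where 4.78% of all gene names were past it. The largest difference of the 9 genes for this pair was that of Ccn1, 0.55 higher with CA77. Between CA39 and AR7, 2 genes were past 1.5-fold, against 14.3% of gene names. These were Ccn2, 2.84 higher with CA39 (7.15-fold), and Ccn1, at -0.86. At 2-fold Ccn2 alone was left, against 6.19% of gene names. Ankrd1 was 0.58 higher with CA39, just under 1.5-fold. Between CA39 and CA77 the same 2 genes were past it, against 13.3% of gene names, with Ccn2 at 2.36 and Ccn1 at -1.41, as CA39 minus CA77. Amotl2 differed by 0.09 between CA39 and AR7, by -0.09 between CA77 and AR7 and by 0.18 between CA39 and CA77. With 1 array per compound no interval can be given for these differences, and a value within the tolerance does not show that the compounds act alike.

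The wider pathway was then examined, as lists of genes that hold none of the 9. Of 21 Hippo core and upstream genes 18 were detected on all arrays. With AR7 1 of the 18 was past 1.5-fold higher and 0 lower, with CA39 0 were higher and 1 lower, and with CA77 0 were past it. Of all names detected on the 4 arrays 1.7% were past it higher and 1.42% lower for AR7. The shares were 5.63% and 4.59% for CA39, and 1.43% and 2.45% for CA77. The Hippo gene was Wwc1 (KIBRA), an upstream activator of LATS, in both cases. Wwc1 read 10.36 untreated, 10.95 with AR7, 9.32 with CA39 and 10.83 with CA77. Its AR7 difference of 0.59 was at the threshold, and over the alternatives it lay between 0.52 and 0.59. The 18 genes had medians of 0.03 (AR7), -0.02 (CA39) and -0.01 (CA77), beside the -0.01, -0.04 and -0.02 of all names detected on the 4 arrays. The AR7 median was below 0 with each scaling of the processed signal and with the series table, and the CA77 median was above 0 with the mean over probes. Fat4, a giant cadherin, was well above background on the untreated array at 6.14 and with CA39 at 8.82, a difference of 2.68, and not with AR7 or CA77. The other TEAD genes and the VGLL cofactors, 4 of 6 detected on all arrays, had none past 1.5-fold in any comparison, and their differences lay between -0.44 and 0.57 on those arrays.

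Of 20 other genes known as YAP and TAZ targets 16 were detected on all arrays. With CA39 3 of the 16 were past 1.5-fold higher and 0 lower, with AR7 1 was higher and 3 lower, and with CA77 0 were past it, to be read beside the shares of all detected names given above for the Hippo genes. The 16 genes had medians of -0.21 (AR7), 0.17 (CA39) and -0.22 (CA77), beside the -0.01, -0.04 and -0.02 of all gene names. The CA39 median lay between 0.07 and 0.18 over the alternatives. Many of these genes are also targets of other pathways.

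Thbs1, the matricellular glycoprotein thrombospondin, read 13.62 untreated, 12.85 with AR7, 17.32 with CA39 and 13.11 with CA77. Fstl1, a secreted follistatin-like glycoprotein, read 12.05, 11.28, 14.07 and 11.56. Both stood in the order of Ccn2, with CA39 highest and AR7 lowest. Gadd45a, a growth arrest and DNA damage gene, was 0.95 higher with CA39, 0.17 with AR7 and 0.32 with CA77. Rbms3, an RNA-binding protein, was at -0.69 with AR7, and another probe gave -0.21 there. Myof, a membrane repair protein, read 7.20, 10.23, 7.18 and 7.32, and so was 3.03 higher on the AR7 array alone, on a single probe.

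Because serum response factor shares targets with YAP and TAZ, a list of 11 genes of that factor was compared too, of which 10 were detected on all arrays. Besides targets, the list holds Srf itself and its cofactors, so its median is not one of targets alone. The 10 genes had medians of -0.07 (AR7), -0.02 (CA39) and -0.06 (CA77), beside the -0.01, -0.04 and -0.02 of all names detected on the 4 arrays. The CA39 median was above 0 with flagged spots kept and with the local median subtracted, and the CA77 median with the mean over probes. Egr1, an immediate early transcription factor, was at -1.01 with CA39, -0.46 with AR7 and -0.11 with CA77. Acta2, smooth muscle actin, was at -0.93 with AR7 and -1.03 with CA77, and at 0.37 with CA39, while the spots within 2 rows and columns of it had medians of 0.27 (AR7), 0.64 (CA39) and 0.28 (CA77). Vcl, the adhesion protein vinculin, was 0.62 higher with CA39, with another probe at 0.71. Actg2, enteric smooth muscle actin, was at 0.59 with CA39. Over the alternatives Vcl with CA39 lay between 0.55 and 0.67 and Actg2 between 0.52 and 0.65, so some put each under 1.5-fold. Srf itself lay at -0.13, -0.22 and -0.21.

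**Figure D4:**
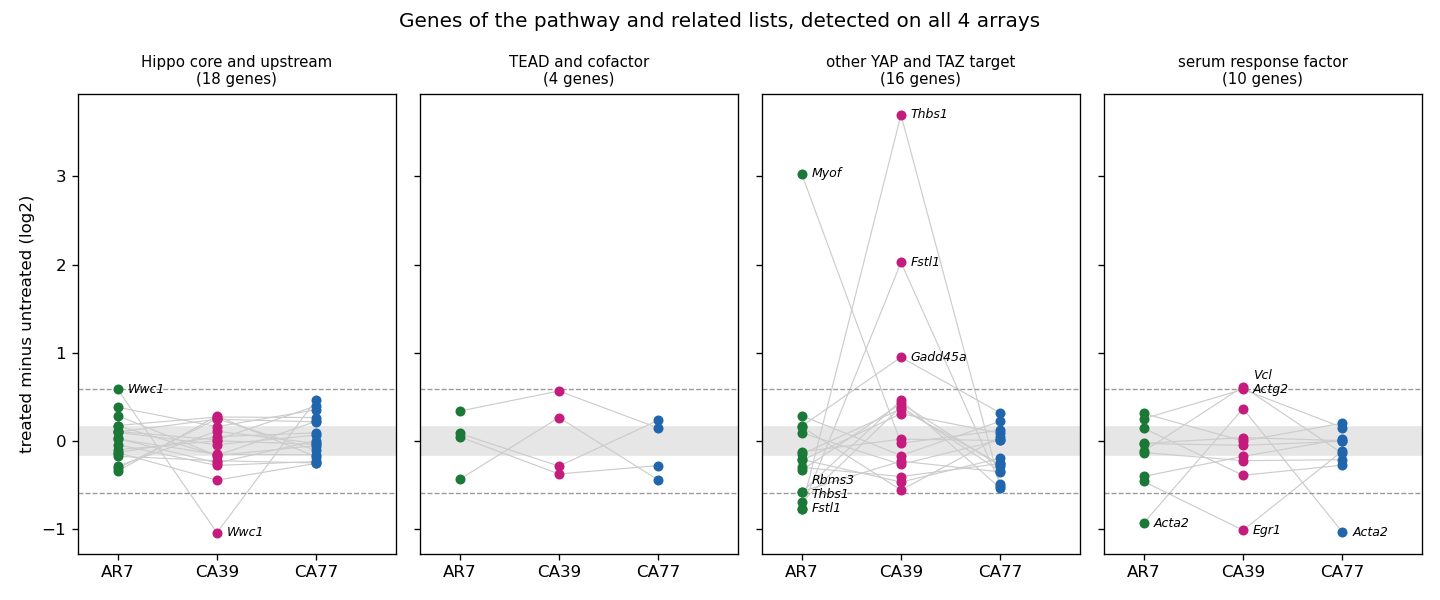
Treated minus untreated log2 differences of the genes of 4 lists that were detected on all arrays, with each gene joined across AR7, CA39 and CA77 by a grey line. The grey band is the tolerance, dashed lines mark 1.5-fold and genes past it are named. Thbs1 at 3.70 and Fstl1 at 2.02 with CA39 and Myof at 3.03 with AR7 lie highest among the other targets, and Wwc1 is the one Hippo gene past 1.5-fold.

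Genes with the profile nearest to that of a member were sought among 13019 symbols detected on all arrays, as the root mean square distance of log2 values centred over the 4 arrays. This is a description over 4 arrays, with no test. Nearest to Ccn1 was Ier2, an immediate early gene, at a distance of 0.06, with differences of -0.39, -1.30 and 0.16. Next came Ccdc113 (0.10) and Syt11 (0.12). Ccdc113 read 6.86 on the CA39 array, at about its floor of 6.85. Nearest to Ccn2 were Sema3a (0.15), a secreted guidance factor, Fstl1 (0.16) and Ndn (0.16). Sema3a was at -0.81, 1.77 and -0.37 with AR7, CA39 and CA77. Nearest to Amotl2 were Slc35g3 (0.02), Nrxn3 (0.03) and Gm826 (0.03). They were much dimmer, at 8.34, 8.92 and 8.41 untreated, where Amotl2 read 13.62.

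The summed signal of fibroblast markers stood in the array order of Ccn2, and the sums for the other cell types did not. Of 7 fibroblast markers 6 were detected on all arrays, and Pdgfrb was well above background on CA39 alone. All 6 were above untreated beyond the tolerance with CA39 and below it with AR7, and 4 were below it with CA77. Of all names detected on the 4 arrays 23.6% were above untreated beyond the tolerance for CA39, and 20.7% below it for AR7 and 26.0% for CA77. Vim and Thy1 did not keep the order of Ccn2, since Vim was higher with CA77 than untreated and Thy1 lower with CA77 than with AR7. The summed normalized signal over the 7 fibroblast markers was 644200 untreated, 508900 with AR7, 966900 with CA39 and 552700 with CA77, which is the order of Ccn2. Col1a2, the brightest of them on each array, was at -0.37, 0.29 and -0.35 with AR7, CA39 and CA77. Col1a1, the main collagen chain, was at -1.04, 1.06 and -0.83, Col3a1, another collagen, at -0.74, 0.51 and -0.63, and Fn1, fibronectin, at -0.22, 1.47 and -0.14. The summed signal of 4 epithelial markers was 386 untreated, 409 with AR7, 1499 with CA39 and 305 with CA77, with Krt8 2.39 higher on CA39 Epcam above background on CA39 alone, and Cdh1, the defining cadherin, not above background on any array. The summed signal of 3 endothelial markers was 4332, 4187, 3846 and 3825 in the same order of arrays. It rests mainly on Kdr, at 11.91 untreated, against 8.48 for Pecam1 and 7.07 for Cdh5. Cdh5 went the other way, at 0.62 with AR7, 0.01 with CA39 and 0.53 with CA77. That of 3 macrophage and leukocyte markers was 3188, 2908, 3580 and 1853, with Ptprc not above background on AR7 or CA39 and Adgre1 not on CA39. The CA77 sum rests mainly on the brightest probe of Csf1r, at -0.88 with CA77, where 2 other Csf1r probes lay between -0.23 and 0.21. That of 4 muscle markers was 872, 908, 641 and 1007, with Ckm and Actn2 above background on the untreated array alone and Myod1 in the order of Ccn2. The part of these markers in the values of Ccn2 was not tested. Fewer cells of a kind and less RNA per cell cannot be told apart in such bulk RNA.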

How the data were processed

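RNA from 1 culture per group was labelled with Cy3 and hybridized to 1-colour Agilent arrays. The authors deposited spot intensity values on a linear scale from Feature Extraction 10.7.3.1, with quality marks of 0 or 1 for each spot. The series table equalled the background-subtracted intensity at all 62976 spots of each array, although the submitters' processing notes name oligo and RMA. In R 4.3.3, limma 3.58.1 corrected spot medians for their background medians by normexp, adding no offset. Gene spots were quantile normalized and put on the log2 scale, flagged spots were left out, and spots of a probe were averaged. Detection of a probe required the scanner's mark for signal well above background on more than 50% of its spots. A dim value was raised to the 1st percentile of detected signal of its array (log2 5.83 untreated, 6.80 AR7, 6.85 CA39, 6.22 CA77), not to the lowest detected signal, and such a difference is a bound. Unversioned accessions were matched to RefSeq genes of GRCm38.p6, which named 27512 probes. The array design cites an older build, so no probe coordinates are given. The tolerance is the square root of 2 times the median SD over spots of 399 probes printed 10 times.

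Named are the 9 genes with every probe, genes of the Hippo, TEAD, other target and serum response factor lists past 1.5-fold and detected on all arrays, and the 3 nearest profiles to each of the 9 with a range past 1.5-fold. Fat4, Srf, the marker genes and the other CCN genes were named after their values were seen. The genes and lists were chosen with earlier results of these data known. A gene of the list of other targets is not reported here and was left out of its counts and medians. Processing was tested on simulated data. Alternatives were another background offset, 2 scalings of the processed signal, the series table, other floors and filters, flagged spots kept, probe means, local medians within 10 rows and columns, and a 2-fold threshold.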

Additional observations from a re-analysis of the deposited data

Results flagged for a closer look

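Some genes lay on opposite sides of untreated, beyond the tolerance, with a pair of compounds. These differences between compounds were not tested, since each compound has 1 array. For Ccn1, AR7 minus CA77 was -0.55 and CA39 minus CA77 was -1.41. For Ccn2, AR7 minus CA39 was -2.84 and CA39 minus CA77 was 2.36. For Ankrd1, AR7 minus CA39 was -0.58.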

How the results depend on the processing

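Of 270 recomputed differences of the 9 genes under 10 alternatives, all 270 stayed within the tolerance of the value given, as did all 30 medians of the 9 genes and all 150 list medians. Counts past 1.5-fold stayed within 1.5 times in 31 of 33 cases against untreated and in 30 of 33 between compounds. For CA39 the count was 3 in place of 2 with the 75th percentile scaling and the series table (Amotl2 added), and for CA39 minus AR7 it was 3 with the local median subtracted. With the 2-fold threshold the counts were 1 for AR7 (Ccn2), 0 for CA77 and 1 for CA39 minus AR7 (Ccn2). For CA77 minus AR7 the count was 1 with the 75th percentile scaling and 1 with the local median subtracted, which was Ccn1, against 0. Among named genes of the lists and 3 fibroblast markers, 377 of 390 values stayed within the tolerance, and Myof with AR7 ranged from 2.67 to 3.50. Rbms3 with AR7 was -0.45 as a mean over probes. Recomputed pairs and lists were added after seeing the data. No replicate could be left out, no slide or scan block was possible, and no paired analysis was possible because each group is 1 array. With 1 culture per group, the spread between cultures limits every value.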

Other observations

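The other CCN genes were looked at because Ccn1 and Ccn2 differed, and were chosen after values had been seen. Ccn5, a CCN protein without the C-terminal domain, was lower on every treated array, at -0.76 (AR7), -0.80 (CA39) and -0.67 (CA77), where Amotl2 was lower on every treated array too. Ccn4 was at -0.17, 0.39 and -0.09. Ccn3 was dim, at 5.90 untreated, 6.95 with AR7 and 6.95 with CA77, differences of 1.05 and 1.06, while on the CA39 array it was not detected. Its untreated and AR7 values lay close to the floors of those arrays, 5.83 and 6.80, so both are near-floor readings. Ccn6 was not above background on any array.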
